A study of Mus musculus with 54 samples.

Results

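PDGFRA-HIGH and PDGFRA-MED mesenchymal cells of the distal fetal mouse small intestine were compared by RNA-seq. The comparison used 6 of the 54 libraries of the series, 3 per sort, and another 12 libraries of the same sorts from the proximal and mid regions showed where the distal difference departed from the rest of the intestine. All fetuses were C57Bl/6J at E16.5, and none of these libraries came from treated dams. Of 5 equal sections of the intestine, the first served as proximal, the middle one as mid and the last as distal. Both sorts were live cells negative for EpCAM, CD31 and CD45 that stained at a medium level for CD29, and they differed in the gate on PDGFRA protein. A library is therefore a gated fraction and not a single cell type. The labels do not tie libraries to dams or litters, so a p-value covers the spread among libraries and no more, and in such bulk samples fewer cells of a type and less RNA per cell cannot be told apart.

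PDGFRA is a receptor for platelet-derived growth factors. In the fetal gut, mesenchymal cells with the most PDGFRA lie directly beneath the epithelium, where they gather into clusters under emerging villi, respond to Hedgehog ligands from the epithelium and secrete BMP ligands. Cells with less PDGFRA make up the looser stroma around them and build much of the interstitial matrix. Position along the gut is marked in the mesenchyme by Hox genes, and the matrix and ligands that the mesenchyme supplies to the epithelium can differ between regions.

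Levels are given as RPKM (reads scaled by gene length and library size). Differences are PDGFRA-HIGH minus PDGFRA-MED on the log2(RPKM + 0.5) scale with their standard error (SE), which makes changes of low genes look smaller than they are. A gene was called higher or lower when limma's treat test against a minimum log2 change of 0.5 gave a Benjamini-Hochberg adjusted p under 0.05. The 6 distal libraries held 18600000 to 23700000 reads in genes, and 1 RPKM of a 1 kb gene stood for 18.9 to 25.6 reads across the mesenchymal libraries. This covers counting error only.

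The gene behind the gate followed the labels. Pdgfra measured 587, 602 and 801 RPKM in the distal PDGFRA-HIGH libraries and 75.6, 107 and 101 RPKM in the distal PDGFRA-MED libraries, so the sorts did not overlap. The difference was 2.81 ± 0.20 (SE, n = 3 per sort, adjusted p = 9.9e-09). For Itgb1, the gene of CD29 (integrin beta 1), the difference was 0.62 ± 0.08 (adjusted p = 0.33, not called). Epcam was low in both sorts, at 0.951 to 1.96 RPKM in PDGFRA-HIGH and 1.18 to 2.89 RPKM in PDGFRA-MED.

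Markers of other cells were measured beside this. The summed level of 16 enteric neuron and glia markers was 2.65 to 4.72 RPKM in distal PDGFRA-HIGH and 46.3 to 214 RPKM in distal PDGFRA-MED libraries, with the highest value in PDGFRA-MED replicate 1, and 14 of these 16 genes were called lower. The sum of 11 endothelial markers was 31.1 to 41.8 RPKM in PDGFRA-HIGH and 6.01 to 6.93 RPKM in PDGFRA-MED. Much of that sum was Erg, a transcription factor, at 21.8 to 30.1 RPKM in PDGFRA-HIGH. Of the 6 endothelial markers tested, 3 were called higher in PDGFRA-HIGH and 1, Kdr, lower (-1.44, adjusted p = 0.041). Single endothelial markers differed: Tek stood at 4.18 to 4.73 RPKM in PDGFRA-HIGH and 1.33 to 1.98 RPKM in PDGFRA-MED, Emcn at 0.308 to 0.653 and 0.0327 to 0.117 RPKM and Tie1 at 0.232 to 0.575 and 0.0404 to 0.0616 RPKM, while Pecam1, which encodes the excluded CD31, stood at 0.106 to 0.267 and 0.13 to 0.272 RPKM. Smooth muscle markers (11 genes) summed to 717, 364 and 274 RPKM in PDGFRA-HIGH replicates 1, 2 and 3. In PDGFRA-MED their sums were 328 to 373 RPKM, so the sorts overlapped. In the proximal PDGFRA-MED libraries, enterocyte markers reached sums of 44.3 to 324 RPKM, pancreatic markers 2.75 to 229 RPKM and erythroid markers 556 to 8860 RPKM, against 4.69 to 14.9, 0.443 to 0.994 and 199 to 504 RPKM in the distal ones. Mesothelial markers (8 genes) summed to 118 to 128 RPKM in distal PDGFRA-HIGH and 15.7 to 30.4 RPKM in distal PDGFRA-MED. This list was split, with 2 of 7 genes tested called higher and 2 lower. Distal means of Aldh1a2 and Upk1b were 9.67 and 3.89 times higher in PDGFRA-HIGH, and those of Upk3b and Wt1 254 and 30.5 times higher in PDGFRA-MED. As all 8 genes summed to at most 30.4 RPKM in distal PDGFRA-MED, the Upk3b and Wt1 ratios rest on PDGFRA-HIGH means near 0. Pericyte markers (6 genes) summed to 113 to 121 RPKM in PDGFRA-HIGH and 173 to 212 RPKM in PDGFRA-MED. The part of any of these cells in the results was not tested.

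Distally, BMP, FGF and EGF family ligands and basement membrane genes were more often called higher than lower in PDGFRA-HIGH, and Wnt ligands, chemokines, interstitial matrix and DNA replication genes more often lower. Of 14732 genes tested, 1424 (9.67%) were higher and 1382 (9.38%) lower in PDGFRA-HIGH. The same test called 1720 higher (11.7%) and 1822 lower (12.4%) proximally, and 1654 higher (11.2%) and 1694 lower (11.5%) in the mid region. In all 3 regions alike, 1147 genes were higher and 1184 were lower.

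The largest distal difference was that of Slco2a1, a prostaglandin transporter, at 39.1, 52.1 and 78.9 RPKM in PDGFRA-HIGH and 0.296, 0.351 and 0.446 RPKM in PDGFRA-MED, or 5.99 ± 0.14 on the log2 scale (adjusted p = 7.6e-17). Lama5, the laminin chain of mature epithelial basement membranes, stood at 184, 178 and 217 RPKM against 2.65, 4.45 and 3.3 RPKM. The other genes among the 6 highest were Chp2, Lmo3, the glucagon-like peptide 2 receptor Glp2r and the transcription factor Foxq1, with differences of 5.40 to 5.91. In the other direction, Cxcl13, a chemokine that attracts B cells, measured 3.65, 5.79 and 2.06 RPKM in PDGFRA-HIGH and 89.3, 107 and 129 RPKM in PDGFRA-MED, a difference of -4.73 ± 0.30 (adjusted p = 8.6e-10). The small proteoglycans Ogn and Aspn, the transcription factor Osr1, Fibin and the neuronal gene Stmn2 lay between -4.67 and -4.03. Stmn2 is one of the enteric neuron markers whose sum is given above.

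**Figure D1:**
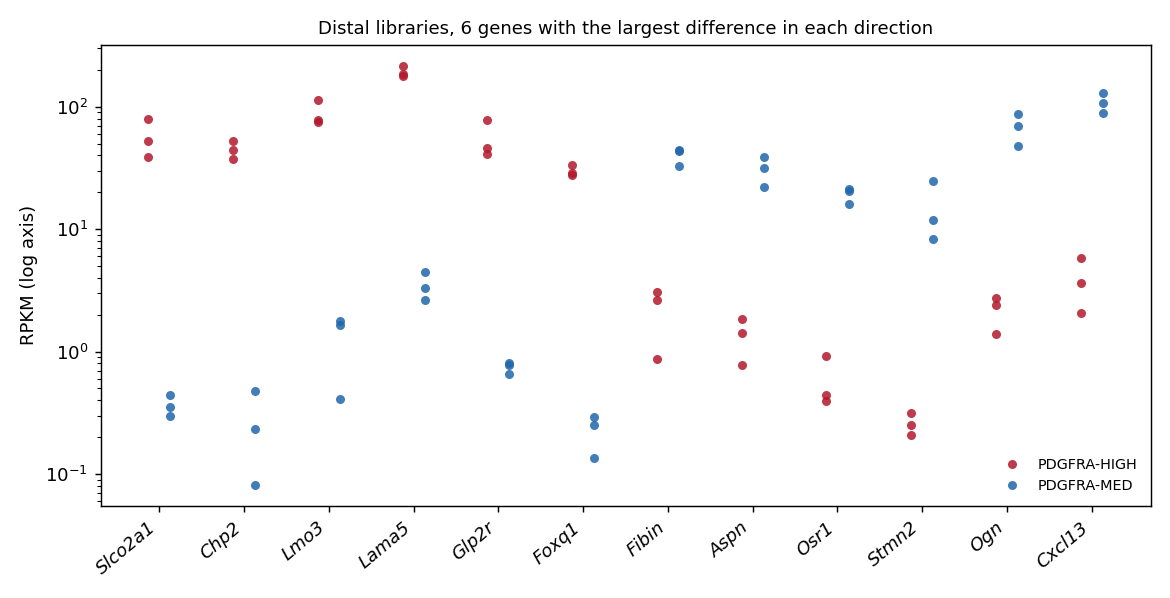
RPKM (log axis) in each of the 6 distal libraries for the 6 genes with the largest difference in each direction. Points are libraries, red for PDGFRA-HIGH and blue for PDGFRA-MED. The genes were chosen for their distal difference, and Slco2a1 spans 39.1 to 78.9 RPKM in PDGFRA-HIGH against 0.296 to 0.446 RPKM in PDGFRA-MED.

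Among BMP ligands and antagonists, 10 of 18 genes tested were higher and 2 lower distally. Bmp2 measured 73.7, 76.2 and 85.1 RPKM against 2.6, 4.8 and 4.17 RPKM (4.21 ± 0.16, adjusted p = 1.5e-13), and Bmp5 and Bmp3 were each higher by 3.70. Smoc1, a secreted BMP antagonist, was at 120, 136 and 153 RPKM against 2.13, 4.9 and 3.16 RPKM (5.19 ± 0.20). Of 10 BMP response genes 7 were higher and 0 lower, among them Id1, by 3.11 ± 0.21, and Id2, by 2.69 ± 0.17. The list medians were 1.58 and 1.78, beside a median of 0 over all genes tested.

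Hedgehog pathway genes split, with 5 of 15 higher and 4 lower. Hhip and Foxf2, targets of the pathway, were higher by 3.52 ± 0.18 and 2.58 ± 0.17, while the co-receptors Gas1 and Cdon were lower, at -2.99 ± 0.38 and -2.59 ± 0.23. Of 7 Wnt ligands, Wnt11 was higher (1.15 ± 0.16) and Wnt2b, Wnt4 and Wnt9a were lower. Wnt2b, a ligand of the canonical pathway, stood at 0.193, 0.234 and 0.112 RPKM in PDGFRA-HIGH and 6.99, 8.53 and 9.25 RPKM in PDGFRA-MED (-3.68 ± 0.12). Among FGF and EGF family ligands 6 of 14 were higher and 0 lower, with the largest differences in Fgf9 (5.32 ± 0.15) and the neuregulin Nrg1 (5.26 ± 0.15).

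Basement membrane genes were higher for 13 of 25 and lower for 4, with a median of 0.93. The interstitial matrix list went the other way, with 3 of 35 higher, 17 lower and a median of -1.08. Its lowest members beside Ogn were Fbln5, an elastic fibre protein (-3.28 ± 0.21), and Col14a1, a fibril-associated collagen (-3.21 ± 0.29). DNA replication and mitosis genes were lower for 34 of 38 with a median of -1.38, and Mcm6, a subunit of the replicative helicase, measured 15.5, 10 and 10.3 RPKM against 68.2, 78.6 and 86.1 RPKM. Hox genes of groups 6 to 13 were higher for 8 of 10 and lower for 0, where 2 were higher proximally and 8 in the mid region. Hoxb8 showed the largest distal difference among them, 14.3, 15.8 and 22.9 RPKM against 3.36, 3.11 and 3.09 RPKM (2.27 ± 0.15). Immediate early and heat shock genes, which also respond to tissue dissociation, were higher for 16 of 27, and their summed level was 8910 to 11600 RPKM in PDGFRA-HIGH and 3460 to 6070 RPKM in PDGFRA-MED. Its part in the other differences was not tested.

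To ask which differences were particular to the distal region, the distal difference was compared with the mean of the proximal and mid differences in a single contrast (region dependence). A positive value means that the gene lies more to PDGFRA-HIGH distally than elsewhere. Of 14732 genes, 35 were positive (0.238%) and 40 negative (0.272%). By thresholds alone, 190 genes were called in the distal region and in neither of the others, and 581 were called alike in both others and not distally, but most of these did not pass the test of the difference itself. Requiring it left 5 genes called only distally (distal-only), 21 no longer called there (lost) and 1 whose difference turned. These names describe the calls, and the libraries of the sorts can still lie apart where a gene was not called. The other 48 region-dependent genes differed in size or between single regions: 30 were called alike in all 3 regions, 27 of them with a smaller distal difference.

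Most contrast came from the proximal side. Against the proximal difference alone 105 genes were positive and 82 negative, and against the mid difference alone 3 and 6. Requiring the departure against each region left 1 distal-only gene and 4 lost or turned genes, Col18a1 among them. For the other distal-only and lost genes, a departure from both regions taken singly was not shown. The genes closest to the threshold were Trpc4 (adjusted p = 0.046) just inside and Btbd11 (adjusted p = 0.051) just outside for a distal-only difference, and Wnt5a (adjusted p = 0.046) and Kcnmb4 (adjusted p = 0.052) for a lost one.

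**Figure D2:**
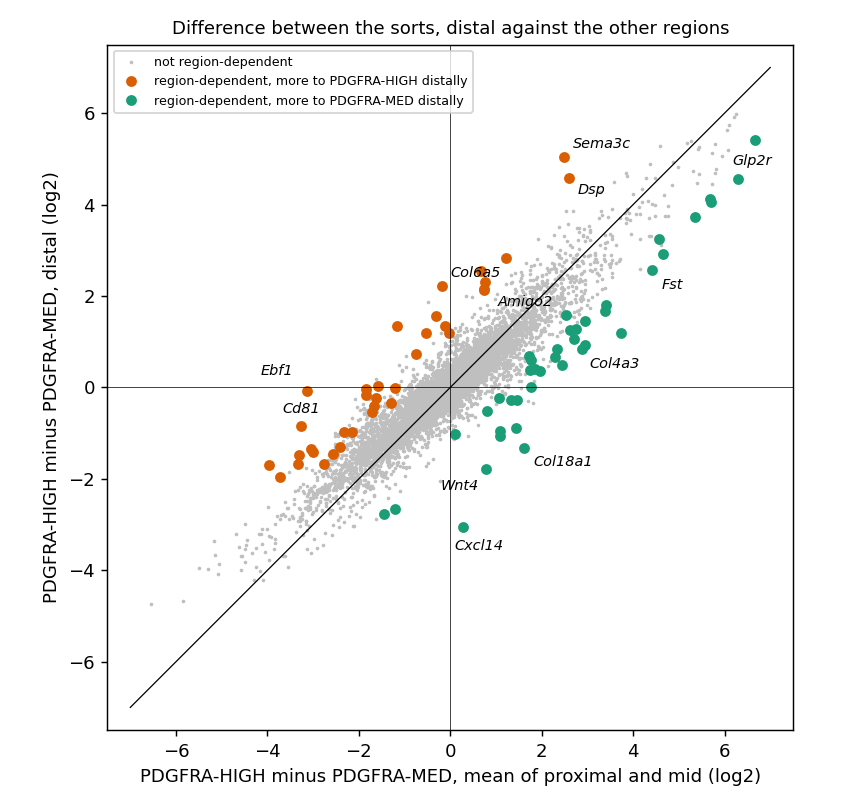
Difference between PDGFRA-HIGH and PDGFRA-MED (log2) in the distal region (vertical axis) against the mean of the proximal and mid differences (horizontal axis) for 14732 genes, with the line of equal values. Orange points are the 35 positive and green points the 40 negative region-dependent genes. Ebf1 lies near 0 distally and near the left of the positive genes, and Cxcl14 and Col18a1 lie below 0 distally and to the right of 0 otherwise.

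Col6a5, a chain of type VI collagen, was called only distally. In PDGFRA-HIGH it held 41.3, 30.2 and 26.8 RPKM proximally, 53.2, 35.3 and 43.1 RPKM in the mid region and 34.2, 29.2 and 38.7 RPKM distally. In PDGFRA-MED it held 44.4, 41.7 and 49.5 RPKM proximally, 38.2, 32.1 and 53.9 RPKM in the mid region and 5.71, 5.94 and 9.7 RPKM distally. The sorts thus overlapped in the mid region, lay close proximally, and parted distally through the fall in PDGFRA-MED, whose mean was 6.08 times lower than elsewhere. The distal difference was 2.21 ± 0.17 (adjusted p = 6e-08), the proximal and mid values were -0.48 and 0.10, and the region dependence was 2.40 ± 0.21 (adjusted p = 3.9e-05). This gene stayed distal-only under all 9 alternative settings and in all 18 fits that left out 1 library.

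The neighbouring Col6a6, another type VI collagen chain, crossed over along the intestine. It measured 7.1, 4.12 and 2.45 RPKM in proximal PDGFRA-HIGH against 17.7, 23 and 21.1 RPKM in proximal PDGFRA-MED, and 40.5, 29 and 30.1 RPKM against 10.6, 12.5 and 14.9 RPKM distally. The differences were -2.16 proximally, -0.16 in the mid region and 1.35 ± 0.27 distally, with a region dependence of 2.51 ± 0.33 (adjusted p = 0.0021). Col6a1 and Col6a2, chains of the common type VI collagen heterotrimer, were far higher in both sorts, at 472 to 614 and 604 to 835 RPKM in distal PDGFRA-MED, and had region dependence values of 0.07 and 0.12 that did not pass.

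Amigo2, an adhesion molecule of the nervous system, and Mum1l1 rose in PDGFRA-HIGH. Amigo2 stood at 26.4, 25.1 and 20.3 RPKM in distal PDGFRA-HIGH and at 6.51 to 11.9 RPKM in the other PDGFRA-HIGH libraries, while all 9 PDGFRA-MED libraries lay between 4.23 and 6.11 RPKM. Its distal difference was 2.14 ± 0.17 and its region dependence 1.40 ± 0.21 (adjusted p = 0.044). The sorts lay apart in every region, with differences of 0.61 proximally and 0.86 in the mid region that were not called. Amigo2 stayed distal-only in 5 of 9 settings, not on recovered reads, and in 5 of 18 fits that left out 1 library. Mum1l1 measured 11.9, 11.9 and 11.5 RPKM in distal PDGFRA-HIGH and 3.82, 4.83 and 4.45 RPKM in distal PDGFRA-MED. Proximally the order was reversed, at 1.76 to 2.46 against 3.37 to 4.07 RPKM. In the mid region Mum1l1 was already 1.46 times higher in PDGFRA-HIGH, a difference of 0.47 that was not called. Its distal difference of 1.34 ± 0.14 and region dependence of 1.45 ± 0.17 (adjusted p = 0.0039) kept it distal-only in all 18 such fits.

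The other distal-only genes were weaker. Il17d, a cytokine of the interleukin 17 family, measured 3.9, 4.1 and 3.8 RPKM against 1.45, 1.33 and 1.57 RPKM distally (1.19 ± 0.13). Proximally the order was reversed, with a PDGFRA-HIGH mean 0.652 times that of PDGFRA-MED, and in the mid region it was 1.43 times. These differences of -0.49 and 0.42 were not called. The region dependence of Il17d was 1.22 ± 0.16 (adjusted p = 0.027), and the gene stayed distal-only in 10 of 18 such fits. Trpc4, a calcium-permeable channel, was the only distal-only gene higher in PDGFRA-MED, at 0.414, 0.233 and 0.42 RPKM against 1.44, 1.02 and 1.23 RPKM. It was 2.64 times higher in PDGFRA-HIGH proximally, at 0.76, 1.19 and 1.22 RPKM against 0.432, 0.305 and 0.463 RPKM, and already lower in the mid region, at 0.533 to 0.651 against 1.01 to 1.23 RPKM, so the sorts lay apart in every region and crossed over, and with a region dependence of -1.12 ± 0.15 it stayed distal-only in 1 of 9 settings and 2 of 18 such fits.

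Ebf1 showed the largest loss. This transcription factor of the early B cell factor family, known in stromal and fat precursor cells, held 6.41, 6.12 and 8.56 RPKM in proximal PDGFRA-MED, 6.47, 5.57 and 11 RPKM in mid PDGFRA-MED and 5.27, 6.19 and 9.21 RPKM in distal PDGFRA-MED. In PDGFRA-HIGH it was at 0.133, 0.28 and 0 RPKM proximally and 0.872, 0.938 and 0.375 RPKM in the mid region, and reached 6.15, 6.44 and 6.55 RPKM distally. The PDGFRA-MED level was alike in the 3 regions, and distal PDGFRA-HIGH fell within its range. The difference went from -3.57 and -2.71 to -0.07 ± 0.23, with a region dependence of 3.07 ± 0.28 (adjusted p = 2.4e-05), and the loss held in all 9 alternative settings and all 18 fits without 1 library. Its relatives Ebf2 and Ebf3 kept their distal difference, at -1.77 ± 0.20 and -1.56 ± 0.27.

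In 3 further genes a rise in PDGFRA-HIGH closed the gap. Cldn1, a tight junction protein, measured 0.308, 0.275 and 0.234 RPKM in proximal PDGFRA-HIGH and 1.34, 1.7 and 1.03 RPKM in distal PDGFRA-HIGH, beside 1.41, 1.3 and 1.17 RPKM in distal PDGFRA-MED (region dependence 1.63 ± 0.18, adjusted p = 0.0018). Epithelial cells, which also use Cldn1, held a distal mean of 0.142 RPKM in their own sort. Pdgfrl, which encodes a protein resembling part of the PDGF receptor, rose from 0.237 to 0.452 RPKM proximally to 2.23 to 2.64 RPKM distally, and distal PDGFRA-MED held 2.32 to 3.47 RPKM. Lrig3, a membrane protein related to regulators of growth factor receptors, rose from 3.79 to 4.44 RPKM to 11.1 to 13.1 RPKM, still below the 15.4 to 16.4 RPKM of distal PDGFRA-MED. The loss of Cldn1 held in all 9 alternative settings and all 18 fits without 1 library. However, its region dependence did not pass against the mid region alone (1.35, adjusted p = 0.22). The loss of Pdgfrl held in 6 of the 9 settings and 15 of the 18 fits.

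Vldlr, a lipoprotein receptor that also binds reelin, converged mainly through PDGFRA-MED. There it measured 7.59, 8.64 and 6.99 RPKM proximally and 2.1, 2.62 and 3.5 RPKM distally, and distal PDGFRA-HIGH held 2.37, 2.79 and 2.68 RPKM. The distal difference was -0.04 ± 0.20 after -2.32 proximally and -1.37 in the mid region, and the region dependence of 1.81 ± 0.24 (adjusted p = 0.0049) kept Vldlr among the lost genes in 9 of 9 settings and all 18 fits without 1 library, although it did not pass against the mid region alone (1.34, adjusted p = 0.88). Sorcs3, a sorting receptor, also fell in PDGFRA-MED, from 2.12 to 3.64 RPKM proximally to 0.755 to 1.06 RPKM distally, although the fall within the sort did not pass by itself.

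Wnt5a, a ligand of the non-canonical Wnt pathways, narrowed because PDGFRA-MED rose. PDGFRA-HIGH stayed level at 34.4, 39.5 and 43.5 RPKM proximally and 35.2, 41.5 and 44 RPKM distally, while PDGFRA-MED went from 10, 11.3 and 9.02 RPKM through 13.8, 14.2 and 13.5 RPKM to 21.5, 30.8 and 23.1 RPKM. The sorts still did not overlap distally, and the ratio of their means went from 3.87 to 1.60. Its region dependence of -1.04 ± 0.13 (adjusted p = 0.046) left it among the lost genes in 6 of 18 fits without 1 library.

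A larger set lost its difference because PDGFRA-HIGH fell. Of the 22 lost or turned genes, 12 were called lower distally within PDGFRA-HIGH and 5 higher. Ptprr, a tyrosine phosphatase that acts on MAP kinases, went from 10.3, 9.8 and 12.1 RPKM proximally and 6.99, 8.47 and 11.8 RPKM in the mid region to 1.18, 1.05 and 2.49 RPKM distally, and distal PDGFRA-MED held 1.04, 0.106 and 0.184 RPKM. Its region dependence was -2.54 ± 0.36 (adjusted p = 0.0038). Its distal difference was not called (adjusted p = 0.068), but it was without PDGFRA-MED replicate 1 (1.61, adjusted p = 0.00231), the library with the most enteric neuron and glia marker RNA, whose part was not tested, and without PDGFRA-HIGH replicate 1 (adjusted p = 0.036). Hoxa4 fell in both sorts, from 51.3, 48 and 59.9 RPKM in proximal PDGFRA-HIGH to 1.18, 1 and 1.63 RPKM distally and from 17, 17.5 and 14.7 RPKM in proximal PDGFRA-MED to 2.88, 1.04 and 1.36 RPKM. The mean in PDGFRA-HIGH was 27-fold and that in PDGFRA-MED 6.38-fold lower distally than in the other regions, and the sorts overlapped there (-0.28 ± 0.23). Its region dependence of -1.73 ± 0.28 (adjusted p = 0.03) left it among the lost genes in 9 of 18 fits without 1 library, and its neighbours Hoxa3 and Hoxa5 did not pass.

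Ptpru, another receptor tyrosine phosphatase, stayed among the lost genes in 9 of 9 settings and all 18 fits without 1 library. It fell from 8.62, 9.52 and 9.59 RPKM in proximal PDGFRA-HIGH to 1.89, 2.16 and 2.28 RPKM distally, and PDGFRA-MED lay between 1.31 and 2.03 RPKM in all 9 libraries. The region dependence was -1.45 ± 0.16 (adjusted p = 0.0021), and against the mid region alone it did not pass (-1.11, adjusted p = 0.6). Gbp3, an interferon-induced GTPase, went from 4.33, 5.14 and 7.35 RPKM to 0.14, 0.581 and 0.965 RPKM and overlapped with PDGFRA-MED distally. Olfml2a, an extracellular matrix protein, went from 11.1 to 13.6 RPKM to 0.638 to 1.26 RPKM but stayed among the lost genes in only 5 of 9 settings and 8 of 18 fits without 1 library. Trhde, a peptidase that degrades thyrotropin-releasing hormone, lost its difference without passing the test of change within either sort.

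Col4a3 and Col4a4 fell together. These chains form, with Col4a5, the type IV collagen network known from kidney glomeruli. Col4a3 measured 2.59, 2.65 and 3.6 RPKM in proximal PDGFRA-HIGH, 2.93, 3.91 and 6.82 RPKM in mid PDGFRA-HIGH and 0.301, 0.313 and 0.963 RPKM in distal PDGFRA-HIGH, a 7.13-fold lower distal mean. Col4a4 ran in parallel at 2.66, 2.69 and 3.17 RPKM, then 3.3, 4.34 and 6.45 RPKM, then 0.271, 0.285 and 0.934 RPKM. All 9 PDGFRA-MED libraries were at or below 0.0547 RPKM for Col4a3 and 0.135 RPKM for Col4a4. Region dependence was -2.02 ± 0.22 (adjusted p = 0.00052) and -2.05 ± 0.21 (adjusted p = 0.00027). The other type IV chains were called higher distally. Col4a5 stood at 244, 265 and 321 RPKM against 7.27, 12 and 9.91 RPKM (4.78 ± 0.15). The differences were 4.70 ± 0.20 for Col4a6, and 1.28 ± 0.13 and 1.44 ± 0.18 for the ubiquitous pair Col4a1 and Col4a2. The ratio of means fell from 59.9 proximally to 28.5 distally for Col4a5 and from 72.3 to 31.4 for Col4a6. The region dependence of Col4a5 (-1.03) and Col4a6 (-1.09) did not pass.

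For genes near 0 in 1 sort, a lost call did not mean equal levels. The ratio of the distal means, PDGFRA-HIGH to PDGFRA-MED, was still 35.2 for Col4a3 after 89.5 proximally, 6.02 for Pde11a after 45.1 and 3.54 for Ptprr after 39.8. In distal PDGFRA-HIGH, 49, 58 and 166 reads stood behind Col4a3, against 3, 2 and 4 reads in distal PDGFRA-MED, and no distal library of the 2 sorts overlapped. When the recovered reads were tested with limma-voom, which adds no fixed RPKM, 7 of the 22 lost or turned genes passed the distal test in their proximal direction, among them Col4a3 (4.86 ± 0.69, adjusted p = 1.35e-05), Col4a4, Ptprr, Pde11a, Cxcl3 and AI593442, which was lower in PDGFRA-HIGH (-4.81, adjusted p = 1.36e-05, from 0, 2 and 0 reads in distal PDGFRA-HIGH against 27, 31 and 34). The region dependence of Col4a3 was -2.62 ± 0.79 (adjusted p = 0.408). Of the 22 genes, 11 were lost or turned on both scales, Ebf1, Cldn1, Vldlr, Pdgfrl, Lrig3, Sorcs3, Wnt5a, Ptpru, Trhde and Col18a1 among them.

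Col18a1 was the 1 gene that turned. It encodes a basement membrane collagen from which endostatin is cleaved. In PDGFRA-HIGH it went from 59.2, 62.5 and 78.6 RPKM proximally and 32.9, 40.5 and 53.5 RPKM in the mid region to 3.26, 3.68 and 7.67 RPKM distally, an 11.2-fold lower distal mean. In PDGFRA-MED it held 18.3, 13.1 and 20.7 RPKM, 19.7, 11.7 and 19.9 RPKM, and 16.7, 8.4 and 12.6 RPKM. The differences were 1.92, 1.29 and -1.32 ± 0.24, and the region dependence of -2.93 ± 0.29 (adjusted p = 0.00011) passed in all alternatives run for it. The distal difference itself missed the threshold without PDGFRA-HIGH replicate 1 (adjusted p = 0.0757) or PDGFRA-MED replicate 1 (adjusted p = 0.077), and when the 6 distal libraries were fitted alone (adjusted p = 0.0892). Its relative Col15a1 went from -1.69 proximally to 1.86 distally, with a region dependence of 2.35 that did not pass (adjusted p = 0.15).

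Cxcl14 and Wnt4 crossed over as well, but the mid region lay between. Cxcl14, a chemokine of the skin and mucosa, measured 4.59, 3.41 and 4.37 RPKM in proximal PDGFRA-HIGH against 0.925, 0.857 and 1.37 RPKM in proximal PDGFRA-MED, and 1.77, 1.09 and 1.39 RPKM against 12.8, 15.8 and 17.8 RPKM distally. The differences were 1.58, -1.02 and -3.06 ± 0.18, and the region dependence of -3.34 ± 0.23 (adjusted p = 3.7e-07) was the largest of the 75. Both sorts changed, PDGFRA-MED by 2.26 ± 0.16 (adjusted p = 4.3e-07) and PDGFRA-HIGH by -1.08 ± 0.16, which lay at the edge of the threshold (adjusted p = 0.05). Wnt4, a ligand of the non-canonical pathways, went from 6.53, 6.11 and 10.6 RPKM to 0.707, 0.559 and 1.78 RPKM in PDGFRA-HIGH and from 1.48, 2.13 and 2.17 RPKM to 3.02, 5.38 and 5.27 RPKM in PDGFRA-MED. Its differences were 1.74, -0.18 and -1.79 ± 0.22 (region dependence -2.57 ± 0.27, adjusted p = 0.00014). Of 7 Wnt ligands tested, Wnt4 and Wnt5a were region-dependent, and of 15 chemokines and cytokines, Cxcl14 and Cxcl2.

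**Figure D3:**
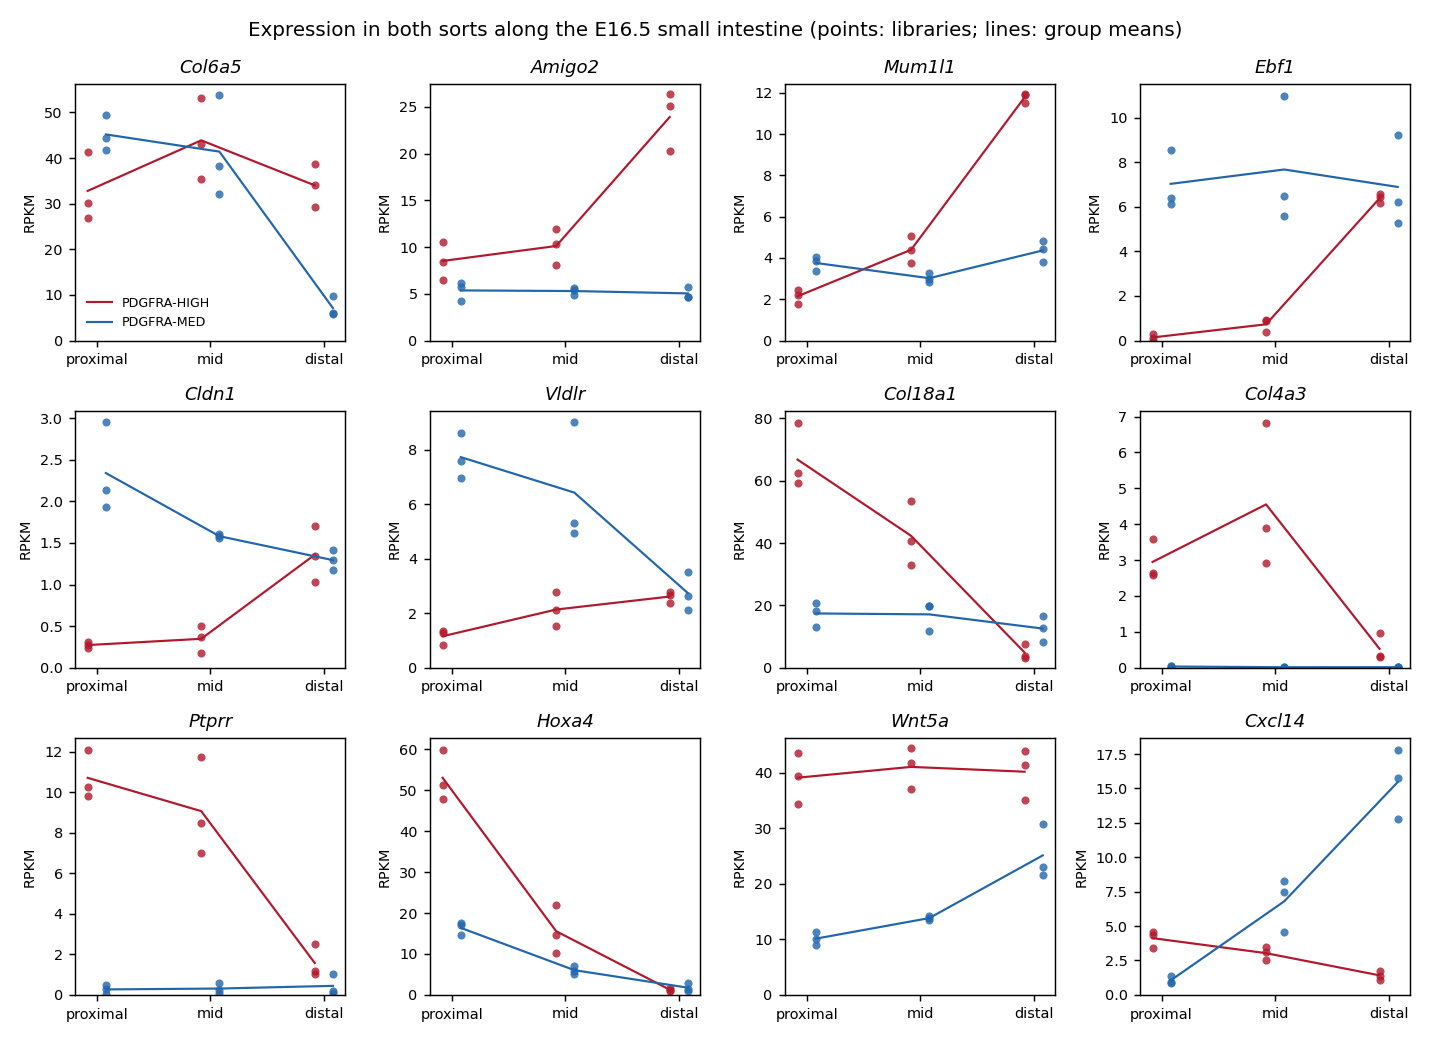
RPKM in both sorts in the proximal, mid and distal regions for 12 region-dependent genes. Points are libraries, lines join group means, red is PDGFRA-HIGH and blue PDGFRA-MED, and every vertical axis starts at 0. Col6a5 parts distally through PDGFRA-MED, Ebf1 and Cldn1 meet through a rise in PDGFRA-HIGH, Col18a1, Col4a3, Ptprr and Hoxa4 fall in PDGFRA-HIGH, and Cxcl14 crosses from 3.92 times higher to 10.9 times lower in PDGFRA-HIGH.

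Sema3c, a secreted guidance factor of the semaphorin family, showed the opposite of a loss. It rose in PDGFRA-HIGH from 35.8, 40.4 and 37.8 RPKM proximally to 159, 170 and 212 RPKM distally and fell in PDGFRA-MED from 14.1, 17.1 and 14.7 RPKM to 4.91, 4.36 and 5.66 RPKM. The ratio of the means went from 2.48 proximally through 13.4 to 36.2 distally, and both changes within a sort passed. Region dependence was 2.56 ± 0.19 (adjusted p = 1.8e-06). Dsp, a desmosome protein, went the same way, at 50.5, 48 and 37.9 RPKM in distal PDGFRA-HIGH against 3.97 to 6.02 RPKM proximally, and its distal difference of 4.59 ± 0.26 compares with 1.99 proximally. Among the 30 region-dependent genes called alike in all 3 regions, Sema3c, Dsp and Cldn11 were the 3 with a larger distal difference.

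Signals with a smaller distal difference included antagonists and matrix genes, which, like the other genes named outside the naming rule (Col6a6, Wnt4, Ptpru, Pdgfrl, Lrig3, Sorcs3, Dsp, Trpm5 and the relatives of named genes), were picked after their values were seen. Fst, the activin antagonist follistatin, stood at 57.4, 55.3 and 55.2 RPKM in distal PDGFRA-HIGH against 8.2, 11 and 8.26 RPKM in distal PDGFRA-MED, where proximal PDGFRA-MED held 0.272 to 0.386 RPKM. The region dependence was -1.86 ± 0.24 (adjusted p = 0.0038). Nog, the BMP antagonist noggin, narrowed as PDGFRA-HIGH fell, with 15.8, 15.9 and 17 RPKM proximally and 6.42, 5.8 and 8.24 RPKM distally in PDGFRA-HIGH (-1.50 ± 0.16, adjusted p = 0.002). Cd81, a tetraspanin, approached the PDGFRA-MED level: it rose in PDGFRA-HIGH from 3.42, 2.83 and 2.45 RPKM through 10.2, 12.2 and 8.8 RPKM to 31.2, 32.3 and 28.7 RPKM beside 48.5, 56.5 and 63.2 RPKM in distal PDGFRA-MED (2.42 ± 0.17, adjusted p = 1.4e-06). Dcn, the proteoglycan decorin, rose in PDGFRA-HIGH from 23.3 to 38.5 RPKM proximally to 83.8 to 104 RPKM distally. Glp2r, although among the highest distal genes, was 2.94-fold lower in distal PDGFRA-HIGH than in the other regions (-1.24 ± 0.16, adjusted p = 0.024).

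Several region-dependent genes were neighbours in the genome (RefSeq gene extents, GRCm38.p6). Col4a4 (chr1:82448419-82587034) and Col4a3 (chr1:82586921-82722059) lie head to head with overlapping starts, and counting used strand. Col6a6 and Col6a5 on chromosome 9 lie 27.8 kb apart, Cd81 and Trpm5 on chromosome 7 lie 3.6 kb apart, and Cxcl3, Cxcl2 and Ereg on chromosome 5 are separated by 116 and 169 kb. Both members of each pair had the same sign of region dependence. Trpm5, a cation channel of taste and tuft cells, rose in PDGFRA-HIGH from 0.301 to 0.433 RPKM proximally to 2.44 to 3.25 RPKM distally, and whether reads running on from a neighbour enter its count was not tested.

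The chromosome 5 group holds 2 chemokines that attract neutrophils and the EGF receptor ligand epiregulin, and all 3 were called lower distally within PDGFRA-HIGH. The related chemokines Cxcl1 (region dependence -1.07) and Cxcl5 (-1.22, adjusted p = 0.054) did not pass. Cxcl2 went from 21.2, 33.5 and 18.1 RPKM proximally and 27.3, 40.6 and 32 RPKM in the mid region to 5.62, 7.25 and 6.41 RPKM distally (region dependence -1.76 ± 0.28, adjusted p = 0.025). Cxcl3 went from 2.27, 3.31 and 3.51 RPKM to 0.261, 0.642 and 0.394 RPKM, the latter from 5, 14 and 8 reads (-1.50 ± 0.20, adjusted p = 0.011). Ereg went from 2.68, 1.96 and 2.62 RPKM to 0.499, 0.292 and 0.604 RPKM (-1.38 ± 0.19, adjusted p = 0.024), and the epithelium held a distal mean of 3.48 RPKM. For Cxcl2, Cxcl3 and Ereg alike the region dependence did not pass on recovered reads, with a pseudocount of 0.1, or without replicate 1 of either distal sort, and for Cxcl2 and Ereg not without replicate 2 of either. The 250 bases before the start of Cxcl2 (chr5:90903649-90903898) and Cxcl3 (chr5:90785851-90786100), both on the plus strand, are shown because these genes fell together and share a motif. The sequences are RefSeq's, build GRCm38.p6, and capitals mark the motif.

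Cxcl2: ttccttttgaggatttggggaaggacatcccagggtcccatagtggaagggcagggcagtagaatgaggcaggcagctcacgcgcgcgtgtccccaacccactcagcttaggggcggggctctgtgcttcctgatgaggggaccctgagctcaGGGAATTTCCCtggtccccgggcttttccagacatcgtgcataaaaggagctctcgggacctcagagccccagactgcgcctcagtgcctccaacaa
Cxcl3: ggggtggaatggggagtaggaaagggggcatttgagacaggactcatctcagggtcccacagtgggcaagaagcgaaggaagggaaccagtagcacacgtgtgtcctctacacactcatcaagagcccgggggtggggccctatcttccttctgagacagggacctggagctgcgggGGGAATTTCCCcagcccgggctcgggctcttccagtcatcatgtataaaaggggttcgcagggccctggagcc

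The motif searched on both strands was GGGA and TTCC separated by any 2 bases, a form of the site bound by NF-kB factors. Its match on the plus strand begins 97 bases before the start of Cxcl2 and 73 bases before that of Cxcl3, and an overlapping match on the other strand makes the 11 capitals. It occurs in 397 of 32851 promoter windows of this length (1.21%). A match is a description of these letters and not of binding.

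Beyond single genes, the sorts were less far apart distally. The median absolute difference over all 14732 genes was 0.32 distally, 0.40 proximally and 0.37 in the mid region. Among the 2331 genes called alike in all 3 regions, the distal difference was the smallest of the regions for 1524 (65.4%) and the largest for 438 (18.8%). The DNA replication list, 34 of 38 lower distally, was 38 of 38 lower in each of the other regions, and its distal median of -1.38 compares with -2.23 proximally and -2.07 in the mid region. By same-numbered pair the distal medians were -1.09, -1.40 and -1.82 and the proximal ones -1.72, -2.36 and -2.61. All 38 genes had a smaller difference distally than in either other region, against 49.3% of all genes tested, but none passed the test of region dependence. Mki67, a marker of cycling cells, stood at 52, 43.2 and 34.2 RPKM in distal PDGFRA-HIGH and 98.5, 134 and 128 RPKM in distal PDGFRA-MED (-1.47 ± 0.21, after -2.82 proximally).

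The immediate early list was smaller distally too, with 24 of 27 genes and a median of 1.26 after 1.84 and 1.72. None of the 27 genes of this list passed the test of region dependence. By pair its distal medians were 0.893, 1.42 and 1.46 and its proximal ones 1.81, 2.19 and 1.51, so the third pair hardly differed. Interstitial matrix genes had a distal median of -1.08 after -1.78 and -1.58, although in the second pair the distal median (-1.19) was no smaller in size than the mid one (-1.11). In that list Dcn and Col6a6 were region-dependent. Basement membrane genes had nearly equal medians of 0.93, 0.94 and 0.93, although 3 of 25 members, Col18a1, Col4a3 and Col4a4, were region-dependent. Hox genes of groups 6 to 13 had a distal median of 1.48, above the 0.25 proximally but below the 1.59 in the mid region. Of these genes, 0 of 10 passed the test of region dependence. Over all genes the median region dependence was 0.01.

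**Figure D4:**
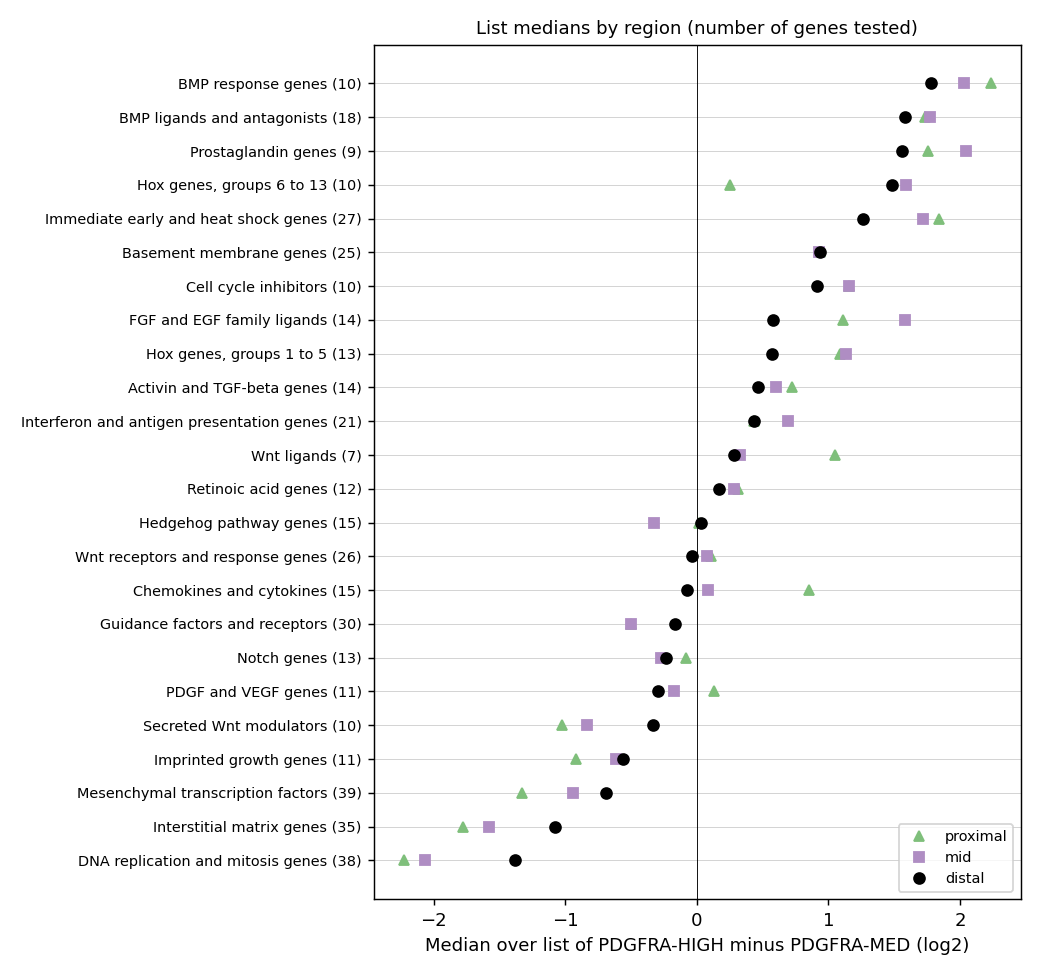
Median difference between PDGFRA-HIGH and PDGFRA-MED (log2) over each gene list in the proximal (triangles), mid (squares) and distal (circles) regions, with the number of genes tested in parentheses. DNA replication genes lie at -1.38 distally and -2.23 proximally, and basement membrane genes near 0.93 in all regions. Hox genes of groups 6 to 13 lie at 1.48 distally, 1.59 in the mid region and 0.25 proximally.

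Within single sorts, the distal libraries departed from the mean of the other regions in 237 genes (1.61%) in PDGFRA-HIGH and 65 genes (0.441%) in PDGFRA-MED. Of the 75 region-dependent genes, 47 were called only within PDGFRA-HIGH, 14 only within PDGFRA-MED, 3 in both and 11 in neither. These counts share libraries with the region dependence itself and are no independent test of it. The distal PDGFRA-HIGH libraries were not alike: of the 144 genes lower distally in that sort, replicate 3 had the highest distal value in 101, and so did it in 10 of the 12 lost or turned genes that fell there. Without that library 31 genes were lost or turned, without PDGFRA-HIGH replicate 1 there were 8 and without PDGFRA-MED replicate 1 there were 10, beside 22 with all libraries.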

How the data were processed

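The authors aligned reads to the mouse mm10 build with Rsubread, keeping multi-mapping reads at up to 16 locations, counted them by strand over RefSeq genes, filtered and scaled them with edgeR and tested them with limma-voom. The deposited values are RPKM, computed by the authors per table. One table (27 libraries, 16901 genes) was used here, and 319 gene IDs without a symbol are not named. The members and gene lists were chosen with earlier results of these data known. Genes with at least 1 RPKM in at least 3 libraries (14732) were fitted on log2(RPKM + 0.5) over all 27 libraries with limma 3.58.1 in R 4.3.3 (trend, robust treat, minimum log2 change 0.5, Benjamini-Hochberg). Scripts were tested on simulated data. Figures were drawn in Python 3.11.15 with matplotlib 3.10.9.

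The replicate number was a block because the study's methods treat it as the mother. Over 45 same-numbered mesenchymal pairs the mean correlation of deviations from group means was 0.186, over 0.1 in 28, and over the 3 distal pairs it was 0.0915, over 0.1 in 1. Reads behind the values were recovered (100% whole at a tolerance of 0.01 reads). Over 18 pairs of libraries of 1 group, chi-square per degree of freedom was 11.6 to 52.5, so none was a repeated library.

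A distal-only gene passed the distal test, neither other regional test, and the test of region dependence. A lost gene passed proximally and in the mid region in 1 direction, not distally in that direction, and passed region dependence the other way. Genes named were the sort genes and given markers, the 6 largest distal differences in each direction that went 1 way in 3 of 3 pairs, the 12 largest region-dependent genes of each class, list members in a class, 2 to 4 examples per list and the genes nearest the threshold. Other genes were named after their values were seen. Alternatives were other pseudocounts, filters, normalization, fitted libraries, recovered reads, no block, no minimum change, single-region contrasts and leaving out each library.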

Additional observations from a re-analysis of the deposited data

Results flagged for a closer look

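In 25 named genes the distal difference between the sorts departed from the mean of the proximal and mid differences by the test of that departure itself, and the values here are its size on the log2 scale. Among genes called only distally these were Col6a5 (2.4), Mum1l1 (1.45), Amigo2 (1.4), Il17d (1.22) and Trpc4 (-1.12). Among genes lower in PDGFRA-HIGH elsewhere that were not called distally they were Ebf1 (3.07), Vldlr (1.81), Cldn1 (1.63), Pdgfrl (1.4), Sorcs3 (1.26), AI593442 (1.17) and Lrig3 (0.944). Among genes higher in PDGFRA-HIGH elsewhere and not called distally they were Ptprr (-2.54), Col4a4 (-2.05), Col4a3 (-2.02), Olfml2a (-1.96), Gbp3 (-1.74), Hoxa4 (-1.73), Pde11a (-1.63), Trhde (-1.59), Cxcl3 (-1.5), Ptpru (-1.45), Ereg (-1.38) and Wnt5a (-1.04). Col18a1 (-2.93) changed direction. No cause was tested for any of them. On recovered reads with limma-voom the departure did not pass for Ptprr, Col4a4, Col4a3, Olfml2a, Gbp3, Hoxa4, Pde11a, Cxcl3, Ereg and AI593442. Pde11a stayed among the lost genes in 3 of 9 settings and 6 of 18 fits without 1 library, and AI593442 in 3 and 16.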

How the results depend on the processing

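No called value of a named gene changed direction under any alternative run. Without a minimum fold change the counts rose to 2457 higher and 2423 lower distally, 2789 and 3055 proximally, 2702 and 2802 in the mid region, 507 positive and 304 negative for region dependence, 58 distal-only and 125 lost or turned genes, and 1165 and 508 genes of regional change within PDGFRA-HIGH and PDGFRA-MED. With a pseudocount of 0.1, 26 genes were negative and 14 lost or turned. With mesenchymal libraries only 12 were lost or turned, and on recovered reads with limma-voom 45 were positive and 23 negative, against 35 and 40. Region dependence against the proximal region alone gave 105 positive and 82 negative, against the mid region alone 3 and 6, and requiring both left 1 distal-only and 4 lost or turned genes. Without the replicate block 1356 genes were higher and 1288 lower distally, 33 positive and 28 negative, 4 distal-only and 17 lost or turned. Leaving out 1 library at a time gave 1259 to 1375 higher and 1218 to 1354 lower distally, 21 to 56 positive, 23 to 48 negative, 2 to 7 distal-only and 8 to 31 lost or turned genes, and 170 to 290 and 41 to 84 genes of regional change within PDGFRA-HIGH and PDGFRA-MED. The causes were not tested. Depth limits genes near 0 RPKM in a sort, where the pseudocount sets the size of a difference.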
